A study of Homo sapiens with 4 samples.

Results

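The HMGA, HMGB and HMGN genes encode the high mobility group proteins, and 9 of them were followed in 2 peak lists from MDA-MB-231, a cell line grown from a human breast cancer. The genes were HMGA1, HMGA2, HMGB1, HMGB2, HMGB3, HMGN1, HMGN2, HMGN3 and HMGN4, of 13328 gene IDs with a peak in either list. A peak belonged to a member where the gene ID that the authors gave it was that member's NCBI Gene ID, and each position was counted once. The set was chosen by measured values in part, since HMGA1 held one of the tallest PABPC4 peaks and several members had alternative 3′ ends. Those values are described here and support nothing. The study cross-linked unmodified cells with ultraviolet light (400 mJ per square centimetre at 254 nm) and immunoprecipitated either HNRNPC or PABPC4, with 2 samples per protein. The HNRNPC samples were made by irCLIP per the labels, although the deposited list carries the name of another form of CLIP, and the PABPC4 samples by PAPERCLIP. The methods call the samples biological duplicates, but the authors pooled them into 1 list per protein, so the spread between samples is not known for any value. No control immunoprecipitation is part of either list.

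HMG proteins are small, abundant chromatin proteins that bend, loosen or decorate DNA without a strong preference for sequence. HMGA proteins bind the minor groove of AT-rich DNA through AT hooks, HMGB proteins bend DNA through HMG boxes and carry an acidic tail, and HMGN proteins bind the nucleosome itself. HMGA1 and HMGA2 are typical of embryonic and cancer cells, and HMGA2 is a textbook target of the let-7 miRNAs. HNRNPC is a nuclear protein that coats new transcripts at runs of U, and PABPC4 binds poly(A) tails. PAPERCLIP starts reverse transcription in the tail, so that a peak is taken to end close to a cleavage site. Because the primer can also start on A-rich stretches that the genome itself encodes, each PABPC4 peak was described by the bases after its end.

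The PABPC4 list held 109 member peaks of 63507 and the HNRNPC list held 34 of 9107. HMGA2 alone had 75 PABPC4 peaks and 31 HNRNPC peaks. HMGB1 had 16 PABPC4 peaks, HMGB2, HMGB3 and HMGN4 had 4 each, HMGN3 had 3, and HMGA1, HMGN1 and HMGN2 had 1 each. All 9 members therefore had a PABPC4 peak, against 59.2% of the 20056 protein-coding genes in the RefSeq table. HNRNPC peaks were listed for HMGA1 and HMGA2, which is 2 of 9 (22.2%, 95% Wilson interval 6.32 to 54.7%), against 19.0% of protein-coding genes. Within the same list, 3 genes typical of this line had tall PABPC4 3′ UTR peaks, with 10197 tags for VIM, 331 for CD44 and 190 for FN1. Of 3 genes that the line is known to express little or not at all, CDH1 had a tallest peak of 56 tags and ESR1 of 7 tags, and PGR had none.

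The last 30 bases of the tallest 3′ UTR peak are shown first for 7 members. For HMGA2 they are those of the 3′ UTR peak nearest its canonical end. The values below refer to the cleavage signals in these bases, which the ends of HMGB1 and HMGB3 lack. The bases run 5′ to 3′ on the gene's strand (genome build GRCh38, gene models of GENCODE 44). Capitals mark a poly(A) signal, AATAAA or ATTAAA, the hexamer to which the cleavage machinery binds.
HMGA1, 7753 tags, chr6:34246204-34246233, plus strand: ttgAATAAAaaaaatatccttttctggact
HMGB1, 404 tags, chr13:30460880-30460909, minus strand: caattttttttattagtattgttgtccttt
HMGN1, 265 tags, chr21:39342310-39342339, minus strand: cAATAAAatctcagttatgaaaatattttg
HMGB2, 247 tags, chr4:173331701-173331730, minus strand: aaaaattttgtAATAAAattatgtatatta
HMGN3, 148 tags, chr6:79201247-79201276, minus strand: gtttaaAATAAAaggtttacttgtctgcag
HMGN4, 99 tags, chr6:26546902-26546931, plus strand: atatctttcAATAAAgtttataattttctc
HMGB3, 55 tags, chrX:150988708-150988737, plus strand: tttgtatgtttagaatgctgaaatgttttt
HMGA2, 86 tags, chr12:65966195-65966224, plus strand: acAATAAAcataacagcctctgtgatcccc
By the tallest 3′ UTR peak of each of the 8 members that had one, 3 had no signal, those of HMGB1 (404 tags), HMGA2 (341 tags, its end not shown) and HMGB3 (55 tags). The signal of HMGA1 began 27 nt before the end of its peak, and those of HMGN1, HMGN3, HMGN4 and HMGA2 began 29, 24, 21 and 28 nt before theirs. In HMGB2 the signal began 19 nt before the end.

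HMGA1 had a single PABPC4 peak, and it was among the tallest of the list. The peak lay at chr6:34246095-34246233 on the plus strand, was 139 nt wide and 7753 tags high, the height being how many unique tags of both samples cover the summit. It ended 2 nt past the annotated end of the canonical transcript, whose 3′ UTR is 1350 nt long. By the tallest 3′ UTR peak of each gene, HMGA1 was at rank 3 of 9780 protein-coding genes. GAPDH, which encodes a glycolytic enzyme, stood just above it with 7950 tags, and ACTN4, which encodes an actin cross-linker, just below with 6570 tags. No PABPC4 peak ended within 50 nt of the other annotated HMGA1 end, 98 nt after the coding sequence, where the nearest peak end was 1254 nt away.

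The other members followed far below. HMGB1 came next with 404 tags (95% Poisson interval 366 to 445, counting error only), so that HMGA1 stood 19.2-fold above it. HMGA2 had 341 tags (306 to 379), HMGN1 265 (234 to 299) and HMGB2 247 (217 to 280). HMGN3 had 148 tags (125 to 174), HMGN4 99 (80 to 121) and HMGB3 55 (41 to 72). When peaks followed within 50 nt by an A-rich stretch of the genome (6 consecutive A, or 7 A among 10 bases) were left out, the tallest 3′ UTR peaks of HMGA2, HMGB2 and HMGB3 had 108, 48 and 11 tags, so that HMGA2 then stood below HMGN3 and HMGB2 below HMGN4. The counting intervals of the full heights overlapped between HMGB1 and HMGA2 and between HMGN1 and HMGB2, and not between the other neighbours. Over all 9780 genes the median tallest 3′ UTR peak was 73 tags, with quartiles at 33.8 and 147, and 7 of the 8 members with such a peak were above the median. These heights rise with the amount of the mRNA as well as with the protein bound to each molecule, contributions which the lists do not separate.

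**Figure D1:**
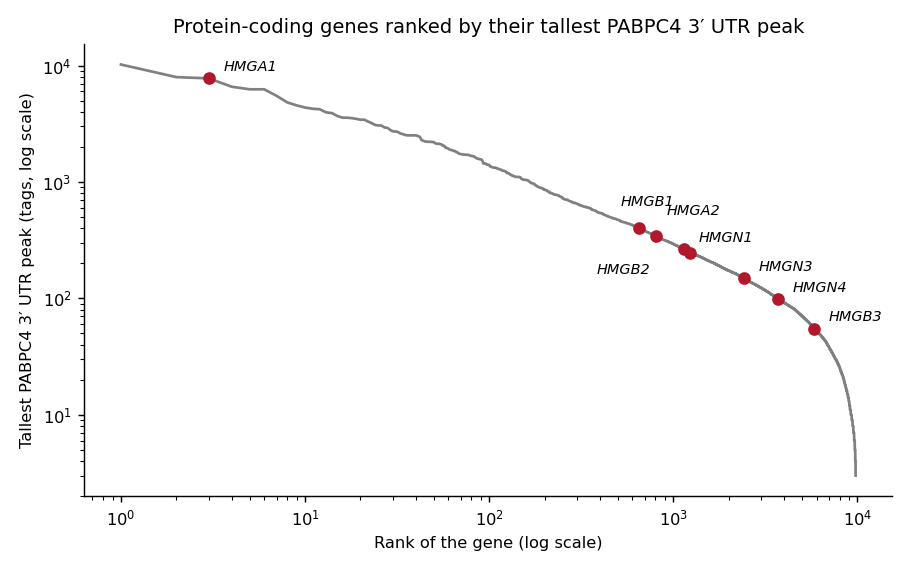
Tallest PABPC4 3′ UTR peak (pooled tags, log axis) of each protein-coding gene against its rank (log axis); the line is all 9780 genes and the red points are the 8 members with a 3′ UTR peak. HMGA1 sits at rank 3 with 7753 tags, HMGB1, HMGA2, HMGN1 and HMGB2 lie between 404 and 247 tags, and HMGB3 is lowest with 55.

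HMGN2 was the exception, with no PABPC4 peak in its 3′ UTR. Thus 8 of 9 members (88.9%, interval 56.5 to 98.0%) had a 3′ UTR peak, against 48.8% of protein-coding genes. The single HMGN2 peak, 72 tags high at chr1:26473942-26473988, lay in a non-coding exon and ended 140 nt before the nearest annotated 3′ end, that of a non-coding HMGN2 transcript, and 2654 nt before the canonical end on the genome. The canonical end carries a signal, as its last 30 bases show.
HMGN2, canonical end without a peak, chr1:26476613-26476642, plus strand: tggacaggAATAAAgtaaattggagactaa
HMGN2, end of its 72-tag peak, chr1:26473959-26473988, plus strand: aaccacaaaaacttttgaggaggaggagaa
The peak was 68.1% A or G and had no signal within 100 nt of it. The last 47 nt before the canonical HMGN2 end occurred nowhere else in the genome, even with 2 mismatches allowed. The RefSeq table holds 48 pseudogenes of HMGN2, and whether the placing of reads between them and the gene bears on the absence of a 3′ UTR peak was not tested. Reads of an end that does occur elsewhere could be left out or placed at a copy, so the copies were counted for every member.

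The members' transcripts with an annotated 3′ UTR had 28 different 3′ ends, and ends of non-coding transcripts, which entered the distances to the nearest annotated end, are not among them. Of the 28 ends, 3 had an exact copy of their last 47 nt elsewhere and 9 had one with up to 2 mismatches. The 3 were a proximal HMGB1 end with 5 copies and both shorter HMGN1 ends, with 2 and 6 copies. A peak ended within 50 nt of that HMGB1 end and of neither HMGN1 end. None of the 9 canonical ends had an exact copy, against 4.89% of canonical ends over all protein-coding genes. Over all genes, a PABPC4 peak ended within 50 nt of 4.16% of the 962 canonical ends with a copy (Wilson interval 3.07 to 5.61%) and of 33.3% of the 18726 without one (32.6 to 34.0%). Whether the copies or other differences between these sets of genes bear on the shares was not tested. Of the members' canonical ends, 5 of 9 (55.6%, interval 26.7 to 81.1%) had a peak, those of HMGA1, HMGB3, HMGN1, HMGN3 and HMGN4, against 31.9% over all genes. Symbols of member pseudogenes numbered 178 in the RefSeq table, and 1 of them, HMGN2P46, was listed, with a peak of 30 tags.

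Over all members, 22 of the 109 PABPC4 peaks lay in 3′ UTRs (20.2%, interval 13.7 to 28.7%), against 29.8% of the list. Introns held 82 of them (75.2%, 66.4 to 82.4%), against 60.2% of the list. HMGA2 supplied 69 of those 82, and without HMGA2 the 3′ UTR share was 50% (17 of 34, 34.1 to 65.9%). A poly(A) signal stood in the last 40 nt of 10 of the 22 3′ UTR peaks (45.5%, 26.9 to 65.3%), against 48.6% of the list's 3′ UTR peaks. Of the 22, 10 ended within 50 nt of an annotated 3′ end (45.5%), against 54.8%, and 6 had an A-rich stretch in the 50 nt downstream (27.3%, 13.2 to 48.2%), against 31.9%. These 3 shares of the members' 3′ UTR peaks lay near those of the list.

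**Figure D2:**
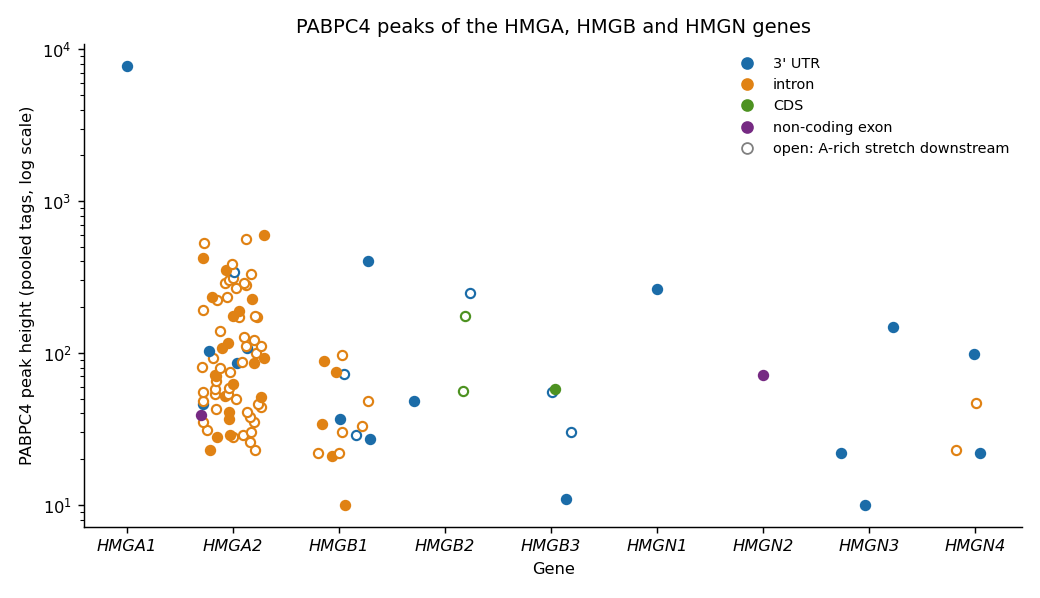
Height (pooled tags, log axis) of each of the 109 PABPC4 peaks by gene; colour gives the place of the peak's centre and open points had an A-rich stretch within 50 nt downstream. The single HMGA1 peak stands at 7753 tags, the 69 intron peaks of HMGA2 spread from 23 to 602 tags, and HMGN2 has 1 peak, in a non-coding exon.

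Alternative 3′ ends were counted as 3′ UTR peaks without an A-rich stretch whose ends lay over 50 nt apart. HMGA2, HMGB1, HMGN3 and HMGN4 had at least 2 such ends, which is 4 of the 8 members with a 3′ UTR peak (50%), and 33.0% of the 9780 genes did; the members were chosen by this measure, so nothing is read from it. When A-rich stretches were also sought in the last 30 nt of the peak, 1 member kept at least 2 ends and the share over all genes fell to 14.6%. This member was HMGB1, by its 404-tag peak and a 27-tag peak in the 3′ UTR of another transcript. That wider window also takes in A runs that continue a poly(A) signal, as in the HMGA1 end shown above, although HMGA1 had a single peak and was not among the 4.

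HMGB1, the most abundant HMG box protein and also an alarmin when released, had its tallest PABPC4 peak early in its 3′ UTR. Its 404-tag peak ended 480 nt from the coding sequence in a 3′ UTR of 4656 nt, 15 nt past an annotated end. A further 3 peaks lay beyond it, with 73 tags at 1442 nt, 37 tags at 1507 nt and 29 tags at 2554 nt, and the 73-tag and 29-tag peaks had an A-rich stretch downstream. A peak of 27 tags lay in the 3′ UTR of another transcript. The tallest thus held 70.9% of the summed 3′ UTR peak height of 570 tags (67.0 to 74.5%). No peak ended within 50 nt of the distal annotated end at 4656 nt, the canonical one, and the nearest peak end was 2102 nt before it. Neither the 404-tag peak nor the 100 nt on either side of it held AATAAA or ATTAAA, whereas the 37-tag peak had a signal 26 nt before its end. With 2 mismatches allowed over the whole width of the peak, the 73-tag and 37-tag peaks had 1 and 2 other genomic places, and the 404-tag and 29-tag peaks none. The 404-tag peak was 102 nt wide, longer than the 50-nt reads. The 47 nt before an annotated end inside it had 5 exact copies, and 14 with up to 2 mismatches. Whether the placing of reads bears on these heights was not tested.

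HMGB2, a relative of HMGB1 that is high in dividing cells, also had its tallest peak before its canonical end. Its 247-tag peak ended 382 nt into a 3′ UTR of 707 nt, exactly at an annotated end and 325 nt before the canonical one, where no peak was listed. An A-rich stretch followed it, although its signal and its annotated end were both in place. A 48-tag peak ended at 195 nt, and 2 further peaks lay in the coding sequence, with 174 and 56 tags. HMGB3, the X-linked relative, had 55 tags at 826 nt, 11 tags at 2559 nt and 30 tags at 2832 nt of its 2860-nt 3′ UTR, and 58 tags in the coding sequence. None of its 3 3′ UTR peaks had a signal in the last 40 nt, and the 55-tag and 30-tag peaks were followed by an A-rich stretch.

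Coding sequence held 3 of the members' 109 peaks, all in HMGB genes, against 5.04% of the list. The taller HMGB2 peak ended in the codons of the acidic tail, a stretch of glutamate and aspartate that marks this family, and its last 30 bases are shown for their purine content.
HMGB2, 174 tags, chr4:173332128-173332157, minus strand: aacgaaccagaagatgaggaggaggaggag
HMGB2, 56 tags, chr4:173332850-173332879, minus strand: ccaaagataaacaaccatatgaacagaaag
Of the 174-tag peak 79.5% of bases were A or G, and of the 56-tag peak 66.0%, with a median of 60.5% over the 3202 coding peaks of the list. An A-rich stretch followed both HMGB2 peaks. The HMGB3 coding peak, of 58 tags, was 57.6% A or G and had no A-rich stretch after it.

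HMGN1 had a single peak of 265 tags, which ended 5 nt past its canonical end, 805 nt from the coding sequence. The authors listed this position under 7 gene IDs, that of HMGN1 among them. HMGN3 had 148 tags at 444 nt, 22 tags at 213 nt and 10 tags at 142 nt of a 446-nt 3′ UTR, so its tallest peak held 82.2% (76.0 to 87.1%). The 148-tag and 22-tag peaks both had AATAAA, 24 and 22 nt before their ends, and both ended within 2 nt of an annotated end. HMGN4, a gene without introns in its coding part that resembles HMGN2, had 99 tags at 1455 nt of 1457 nt and 22 tags at 1024 nt. Its 22-tag peak carried ATTAAA 19 nt before the end, at a place 433 nt from the nearest annotated end, and the tallest peak held 81.8% (74.0 to 87.7%).
HMGN3, 22 tags, chr6:79201478-79201507, minus strand: tcaagtaaAATAAAtatcagttaaatattg
HMGN4, 22 tags, chr6:26546471-26546500, plus strand: ctctttcataaATTAAAtttttgtgtatgt

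**Figure D3:**
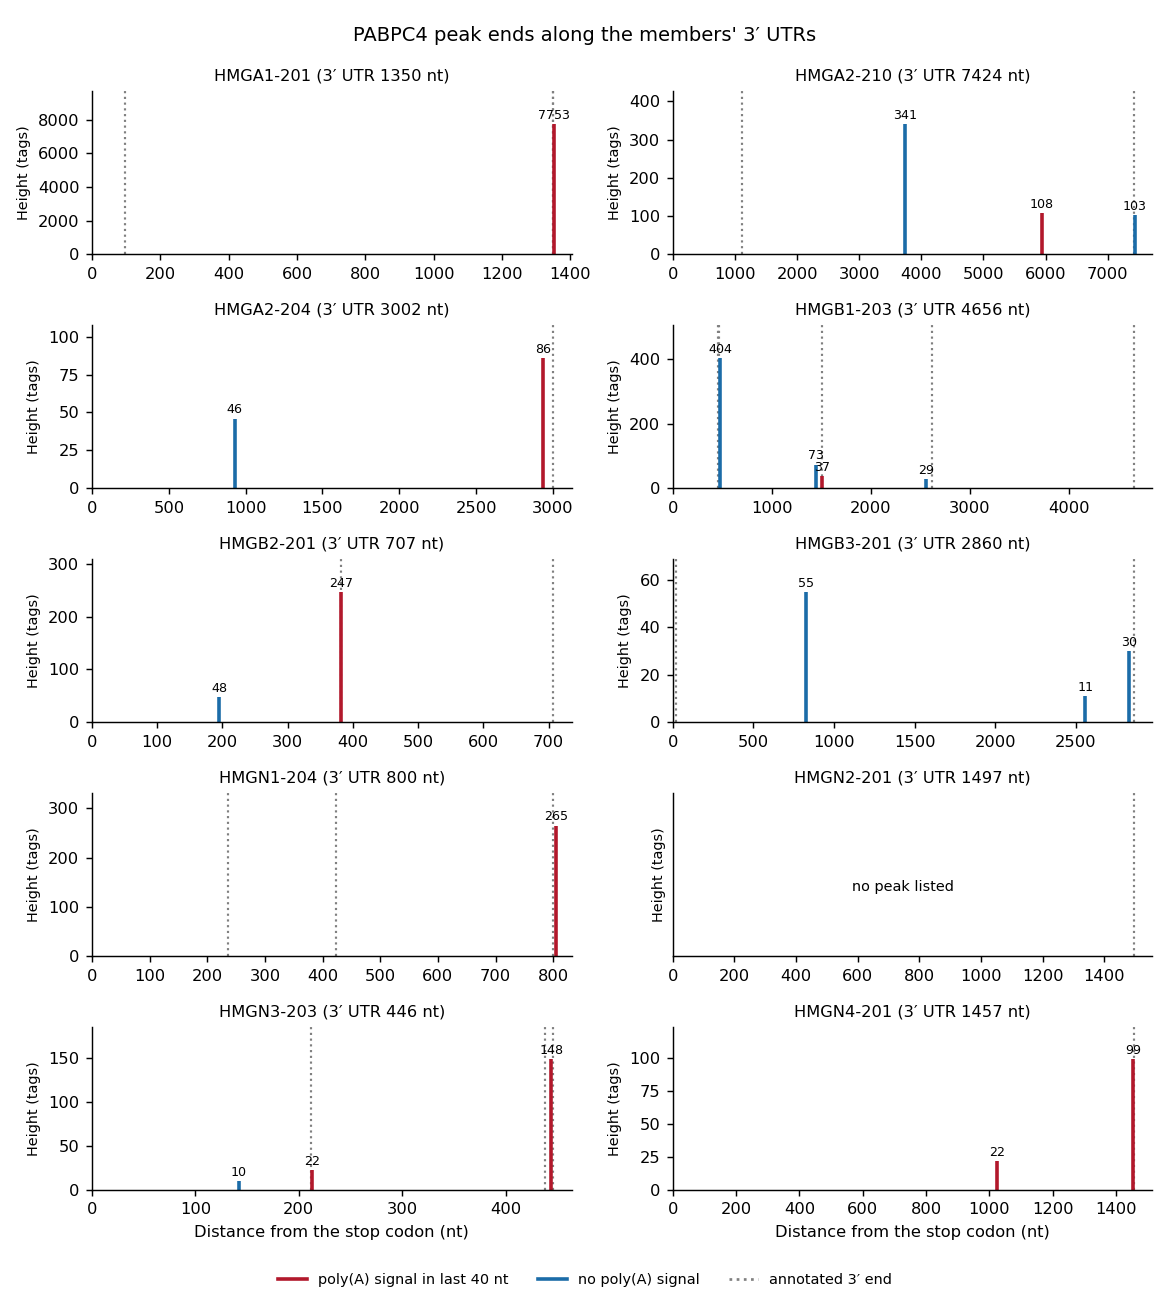
Ends of PABPC4 3′ UTR peaks along the members' 3′ UTRs, as distance from the end of the coding sequence (nt, stop codon included) against height (pooled tags, linear axis with its own scale in each panel); red bars had a poly(A) signal in the last 40 nt, blue bars had none, and dotted lines are annotated 3′ ends. HMGB1 and HMGB2 have their tallest bars at 480 and 382 nt, before the canonical ends at 4656 and 707 nt, and the 27-tag HMGB1 peak of another transcript is not drawn.

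HMGA2, which is silent in most adult tissues, had its PABPC4 peaks spread over the gene. Its 75 peaks fell on 142 kb, or 0.529 per kb, while HMGB1, with a similar span of 161 kb, had 0.0994 per kb. The HMGB1 span includes other transcripts, and all 11 of its intron peaks lay outside its canonical transcript. Of the shorter members, HMGB2 had 1.31 per kb, above HMGA2, HMGN4 had 0.467 and HMGB3 had 0.390. By number of peaks HMGA2 was at rank 16 of 11865 protein-coding genes, whose median was 3. The intron peaks had a median height of 86 tags (quartiles 46 and 192), and the intron peaks of the list 35 (quartiles 20 and 57). Intron 3 of the canonical transcript, 113 kb long, held 59 peaks, and introns 1, 2 and 4 held 1, 8 and 5. These counts go by the canonical introns alone. They therefore include a peak in a non-coding exon and the 3′ UTR peaks of another transcript, which are not among the 69 intron peaks.

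An A-rich stretch lay downstream of 56 of the members' 82 intron peaks (68.3%, 57.6 to 77.4%), against 71.2% of the list's intron peaks, and of 64 of all 109 member peaks (58.7%, 49.3 to 67.5%), against 58.5%. With the last 30 nt of the peak included, the intron share became 78.0% (67.9 to 85.6%), against 78.1%. A poly(A) signal was found in 5 of the 82 (6.10%, 2.63 to 13.5%), against 6.39%. The shares of the members' intron peaks thus lay near those of the list. Of the 5 tallest HMGA2 intron peaks, 4 are shown with 15 nt before and 15 nt after their end, because the A runs of 3 of them lie wholly or mostly inside the peak; capitals mark 6 or more A in a row.
HMGA2, 602 tags, chr12:65861623-65861652, plus strand: tAAAAAAAAAAAAAAAAAAcctagatacta
HMGA2, 560 tags, chr12:65831435-65831464, plus strand: tattggaaggaaaatgaaaatAAAAAAAAA
HMGA2, 422 tags, chr12:65859922-65859951, plus strand: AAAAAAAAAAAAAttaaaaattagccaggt
HMGA2, 385 tags, chr12:65826785-65826814, plus strand: AAAAAAAAAAAAtccaaaagaaattacaat
The genome thus encodes an A run at or just after the end of these 4 peaks. HMGA2 intron peaks with a poly(A) signal included the 560-tag peak, with ATTAAA 24 nt before its end and an A run after it, and a 234-tag peak with AATAAA 23 nt before its end. The 11 intron peaks of HMGB1 had 10 to 97 tags, 6 were followed by an A-rich stretch and none had a signal. A 14-nt peak among them, of 33 tags, matched 14268 other places in the genome, and no other member peak that was searched had an exact copy. Each peak was searched over its whole width, so shorter copies inside a wide peak are not counted. The 2 HMGN4 intron peaks had 23 and 47 tags, and an A-rich stretch followed both. Whether a PABPC4 peak in an intron marks a cleaved transcript or a genomic A run was not tested.

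The 3′ UTRs of HMGA2 held 5 PABPC4 peaks, none above 341 tags. The annotation gives HMGA2 a 3′ UTR of 7424 nt, in transcript HMGA2-210, which ends in what is intron 4 of the canonical transcript, and one of 3002 nt in the canonical HMGA2-204. In the first, peaks of 341, 108 and 103 tags ended at 3731, 5938 and 7440 nt. In the second, peaks of 46 and 86 tags ended at 928 and 2935 nt. The 341-tag peak was followed by an A-rich stretch, the 103-tag peak held 13 A in a row inside its last 30 nt, and the 108-tag and 86-tag peaks carried AATAAA.
HMGA2, 108 tags, chr12:65957339-65957368, plus strand: AATAAAttttcttcttctgggccgggcacg
HMGA2, 103 tags, chr12:65958841-65958870, plus strand: tctttgcagttaagaaaaaaaaaaaaagat
The 103-tag peak ended 16 nt past the annotated end of HMGA2-210, and the 86-tag peak 67 nt before the canonical end. A peak of 173 tags lay between them in intron 4, 1111 nt before the nearest annotated end. A 39-tag peak at 65831016 to 65831045 on chromosome 12, in a non-coding exon 6.58 kb from the gene's 5′ end, carried AATAAA 21 nt before its end and ended 5 nt before an annotated one.

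**Figure D4:**
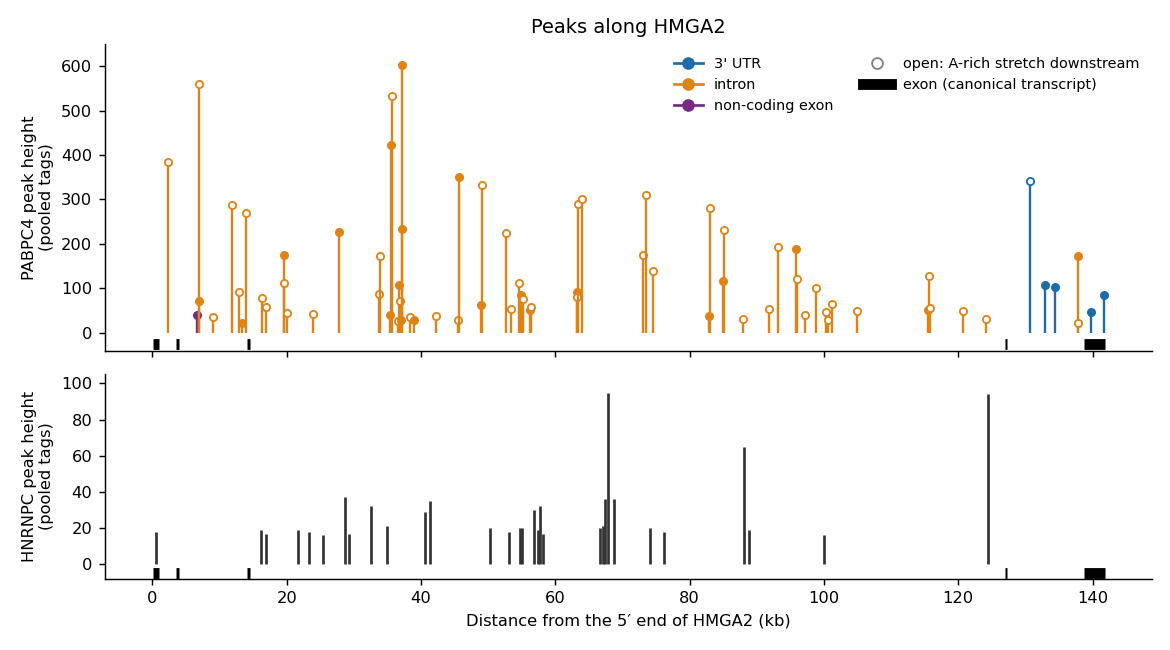
Peaks along HMGA2 as distance from its 5′ end (kb) against height (pooled tags, linear axes): PABPC4 above, coloured by the place of the peak's centre with open points for an A-rich stretch downstream, and HNRNPC below, with the exons of the canonical transcript as black boxes. The tallest PABPC4 peaks, up to 602 tags, lie in introns within 40 kb of the 5′ end, and 30 of the 31 HNRNPC peaks lie in intron 3.

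The let-7 miRNAs pair with their targets through bases 2 to 8, shown in capitals in the mature sequence, and the 8 let-7 names in the RefSeq miRNA table share this seed.
hsa-let-7a-5p: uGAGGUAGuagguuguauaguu
The complement of the seed, CUACCUC in RNA, occurred 4 times in the canonical 3′ UTR of HMGA2 and once in that of HMGA1, and in none of the other 7 members' canonical 3′ UTRs. Over all genes, 9.53% of canonical 3′ UTRs held at least 1 match and 0.0612% (12 of 19606) held 4 or more. In the longest annotated 3′ UTR of each gene the share was 10.4%, and 1 of 9 members, HMGA1, had a match, since the 7424-nt 3′ UTR of HMGA2-210 had none. The 5 matches are shown with their flanks, and capitals mark the match.
HMGA2, 24 to 30 nt, chr12:65963302-65963331, plus strand: acgttcgatttCTACCTCagcagcagttgg
HMGA2, 1259 to 1265 nt, chr12:65964537-65964566, plus strand: actactcaataCTACCTCtgaatgttacaa
HMGA2, 1671 to 1677 nt, chr12:65964949-65964978, plus strand: cttgcaaagacCTACCTCcagacttcaaaa
HMGA2, 2524 to 2530 nt, chr12:65965802-65965831, plus strand: aaaacacactaCTACCTCttaagtcccagt
HMGA1, 963 to 969 nt, chr6:34245833-34245862, plus strand: ctgttcacaaaCTACCTCtggacagttgtg
The 46-tag HMGA2 peak, ending at 928 nt, had 1 match before it and 3 after it, whereas all 4 lay before the 86-tag peak at 2935 nt. A transcript that ended with the peaks of HMGA2-210 would hold no match. The HMGA1 match lay before that gene's only PABPC4 end, so that the form seen at 7753 tags includes it. A match is a description of the letters, and pairing with let-7 was not tested.

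HNRNPC peaks of the members were almost all in introns, 31 of 34 (91.2%, 77.0 to 97.0%), against 85.5% of the list. HMGA1 had 3, with 29, 26 and 138 tags from its 5′ to its 3′ end, all in introns. The 138-tag peak, 184 nt wide, ended 444 nt before the shorter annotated HMGA1 3′ end, and by its height HMGA1 was at rank 26 of 3814 genes, whose median tallest HNRNPC peak was 12 tags. HMGA2 was at rank 65 by its tallest peak, 95 tags, and at rank 11 by its number of peaks. Its 31 peaks had a median height of 20 tags (quartiles 18 and 32), and the list 11 (quartiles 8 and 17).

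Of the HMGA2 peaks, 30 fell in intron 3 of the canonical transcript, or 0.266 per kb, and none in introns 1, 2 and 4. The 3 tallest had 95 tags at 67.8 kb, 94 tags at 124 kb and 65 tags at 88.1 kb from the gene's 5′ end. A peak of 18 tags, 319 nt wide, lay in the 5′ UTR. Peaks of 19 and 32 tags had their centres in the 3′ UTR of a short transcript, HMGA2-205, that ends inside intron 3, and the 32-tag peak ended 57 nt past that annotated end. The nearest PABPC4 peak to this pair had 58 tags, and it lay 873 and 1131 nt upstream. No HNRNPC peak was listed in the canonical 3′ UTR of any member.

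A run of 5 U from 50 nt before the 5′ end of the peak to 9 nt inside it was found for 9 of the 34 member peaks (26.5%, 14.6 to 43.1%), against 34.1% of the list. The 3 tallest of these were HMGA2 peaks and are shown, with runs of at least 5 in capitals (T for U).
HMGA2, 35 tags, chr12:65865616-65865645, plus strand: tatctccatctaTTTTTcTTTTTTTTTTTT
HMGA2, 29 tags, chr12:65864773-65864802, plus strand: tggcctacaTTTTTTagattatttaactat
HMGA2, 20 tags, chr12:65879108-65879137, plus strand: ccctgaaagaaaaaaaataaagacTTTTTT
The 4 tallest member peaks, of 138, 95, 94 and 65 tags, were without such a run in this window, and the tallest with one had 35 tags. These 4 peaks were 113 to 445 nt wide, so most of their bases lay outside the window. A run anywhere inside the peak was found for 10 of the 34 (29.4%, 16.8 to 46.2%), a setting without a list share here. The longest annotated 3′ UTR of all 9 members held UUUUU (interval 70.1 to 100%), against 75.5% over all genes. In the canonical 3′ UTRs the runs ranged from 1.48 per kb in HMGA1 to 13.5 per kb in HMGN3.

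Between 20 nt before and 5 nt after the 3′ end, 33.0% of all HNRNPC peaks held the 6 bases GUGUCA, and 3 of the 34 member peaks did (8.82%, 3.05 to 23%). The interval of the members lay below the share of the list, but 31 of the 34 peaks come from 1 gene and are not independent. The 3 were the 26-tag HMGA1 peak and the 94-tag and 65-tag HMGA2 peaks. The ends of the 4 tallest member peaks are shown with 20 nt before and 10 nt after the end, and capitals mark these bases.
HMGA1, 138 tags, chr6:34244516-34244545, plus strand: tagggagtcagtcacatcctgaagctcatt
HMGA2, 95 tags, chr12:65892242-65892271, plus strand: gacttttaatgccagcacacagagcagaga
HMGA2, 94 tags, chr12:65948797-65948826, plus strand: tcattgaaGTGTCAggacctaattcatgga
HMGA2, 65 tags, chr12:65912510-65912539, plus strand: caatctgtagaGTGTCAggggagtcttaga
The 94-tag and 65-tag peaks thus ended close to these bases, and the 138-tag and 95-tag peaks did not. Whether these bases belong to the RNA or to a linker of the library was not tested, the linker's sequence not being given in the sources used here.

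**Figure D5:**
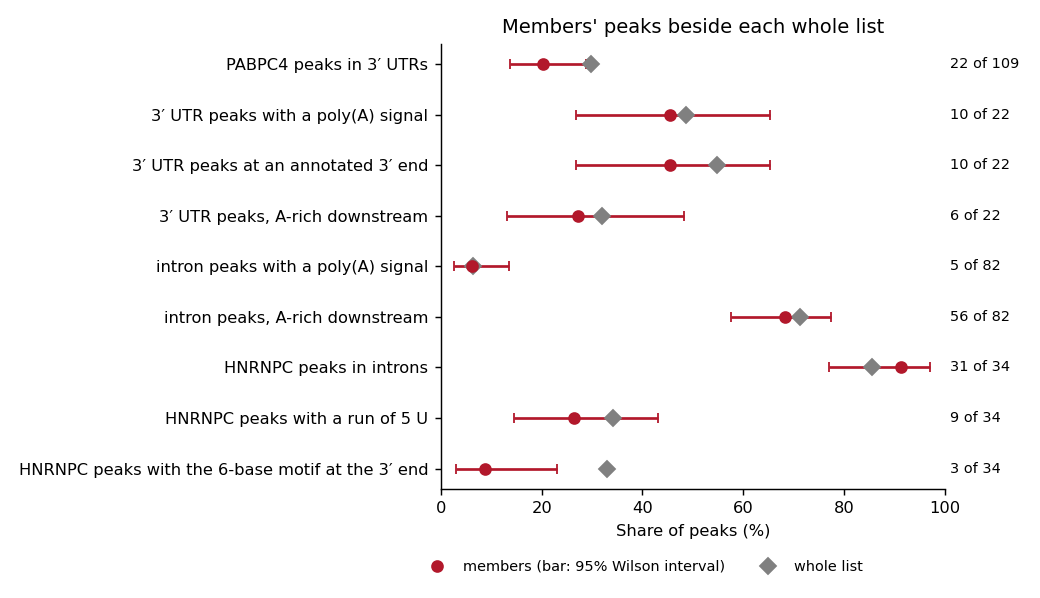
Shares of the members' peaks (red, bars are 95% Wilson intervals, counts at the right) beside the shares of the whole list (grey), in percent of peaks. Of the 9 rows, the interval of the members leaves out the list's share for PABPC4 peaks in 3′ UTRs (50% without HMGA2) and for the 6-base motif GUGUCA at HNRNPC 3′ ends.

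The peaks of both proteins lay closer in HMGA2 than in the list. Of its 31 HNRNPC peaks, 1 overlapped a PABPC4 peak and 11 lay within 500 nt of one (35.5%), with a median gap of 933 nt. Over all HNRNPC peaks, 8.97% lay within 500 nt and the median gap was 3909 nt. Both lists are dense in HMGA2, and its peaks share 1 gene and 1 level of transcript, so no test was made. The 3 HMGA1 peaks lay 7632, 3685 and 1560 nt from that gene's PABPC4 peak.

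Among 9 other genes that encode HMG box or related chromatin proteins, 8 had a PABPC4 peak and 5 had one in a 3′ UTR. Over all protein-coding genes these shares were 59.2% and 48.8%. The tallest 3′ UTR peaks were those of SSRP1, a subunit of the histone chaperone FACT, with 537 tags, HMG20B with 225 tags and TFAM, which packs mitochondrial DNA, with 170 tags. HMGB4, a testis gene, had no peak, and 1 of the 9, HMGXB3, had an HNRNPC peak, of 7 tags, against 19.0% of protein-coding genes.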

How the data were processed

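HNRNPC irCLIP and PABPC4 PAPERCLIP in MDA-MB-231 cells (2 samples each, pooled by the authors) gave 1 peak list per protein, and the deposited signal of a peak is its height in unique tags at the summit, not scaled to depth by the authors. For HNRNPC the authors collapsed molecular identifiers with UMI-tools, trimmed with cutadapt, aligned with BWA 0.7.17 to hg38 and used the CLIP Tool Kit for peak calling. For PABPC4 no separate tag processing is given in the sources used here. Reads were 50 nt long, so that copies of a sequence elsewhere in the genome could decide whether it was mapped. Library depths were not used here, and heights were compared within a list.

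The members and gene lists were chosen with earlier results of these data known. Of 69778 PABPC4 and 10388 HNRNPC entries, 6271 and 1281 repeated a position under another gene ID and were counted once. Gene IDs were matched to RefSeq symbols for 13155 of 13189 and 4090 of 4098 IDs. Peak centres were placed with GENCODE 44 (GRCh38) on the same strand, with 3′ UTR taken before coding sequence, 5′ UTR, non-coding exon and intron, and 0 peaks ran past a chromosome end. Copies of sequences were searched on both strands, for peaks over their whole width and for annotated ends over their last 47 nt, by a search tested on simulated data. Peaks named were each member's tallest in each list, every 3′ UTR peak of at least 10% of the gene's tallest, and every HNRNPC peak outside introns. Other peaks named were chosen after their values were seen. Shares have 95% Wilson intervals and heights 95% Poisson intervals (scipy 1.17.1), which cover counting error only. No test was made, because each protein has 1 list. Alternatives covered p-value and height limits, canonical transcripts, signal and A-rich windows, distances to annotated ends and U runs. The A-rich window that includes the peak's last 30 nt, the counts without HMGA2, the letters GUGUCA and the copies of annotated ends were added after the data were seen. Some items are not reported here.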

Additional observations from a re-analysis of the deposited data

How the results depend on the processing

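No paired analysis was possible because neither list keeps its samples apart, and for the same reason no sample could be left out. Of 49 values recomputed, 25 stayed within the counting interval (or within 1.5 times a count) and 24 moved. Removing HMGA2 left 34 PABPC4 and 3 HNRNPC peaks, a 3′ UTR share of 50% and an A-rich share of 44.1%. Removing A-rich peaks gave a 3′ UTR share of 35.6% (list 48.9%). A poly(A) signal within 100 nt of the peak was found for 77.3% (list 71.8%). The A-rich share was 33.9% with 6 A in a row only (list 43.9%), 46.8% in a 20-nt window (list 41.8%) and 76.1% with the last 30 nt of the peak included (list 73.1%), which left 1 member with at least 2 ends. Within 100 nt of an annotated end lay 68.2% (list 63.4%). The median share of height in the tallest peak was 82.0%, and 93.2% without A-rich peaks or 51.8% over all peaks of the gene. Member peaks with another genomic place over their whole width rose from 1 to 13 with 2 mismatches. A run of 4 U gave 47.1% (list 48.5%). The causes of these moves other than the change of definition itself were not tested. The depth of the libraries is unknown here, so that a missing peak may lie below detection.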
